A study of Mus musculus with 12 samples.

Results

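Voltage-gated sodium and calcium channels and the hyperpolarization-activated HCN channels were followed in the adult mouse hippocampus after early ethanol and later enrichment. The genes were taken by symbol, as every gene named for a sodium channel pore or beta subunit, a calcium channel pore, alpha2delta, beta or gamma subunit, or an HCN subunit, with no use of measured values. The rule found 43 of the 36119 genes in the table, and Cacna1s, whose letter lies outside the rule, is not among them. RNA was measured in 12 hippocampi of C57BL/6 mice at postnatal day 70, 3 in each of 4 groups. The enriched ethanol group had received ethanol in saline under the skin as pups and lived in enriched cages from day 21. The standard ethanol group had received the same ethanol and lived in standard cages, the enriched saline group had received saline alone and lived in enriched cages, and the standard saline group had received saline alone and lived in standard cages. Ethanol was given at 2.5 g/kg in 0.15 M saline, in 2 injections 2 hours apart on each of days 6 and 7, and the saline mice received matching volumes of saline. Enriched cages held 2 to 6 littermates of the same sex with wheels, toys and additional bedding and nest material. The series presents the exposure as a model of fetal alcohol spectrum disorder and tags it as prenatal, while its protocol dates all injections after birth. The p values below set differences between groups against the spread between libraries of a group. The labels give neither the sex nor the litter of any mouse, so whether the libraries are independent of each other cannot be told.

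Sodium channels open when a neuron depolarizes and carry the rising phase of the action potential. Calcium channels turn that depolarization into calcium entry, which drives transmitter release at axon endings and gene regulation and burst firing elsewhere, while HCN channels open on hyperpolarization, bind cyclic AMP and set resting potential and rhythm. A pore subunit forms the conducting part of each channel. Beta, alpha2delta and gamma subunits change how many channels reach the membrane and how they gate, and several gamma subunits, called TARPs, are auxiliary subunits of AMPA-type glutamate receptors instead.

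Values are on the scale named TPM, relative to transcript length and to the library’s total, so levels of different genes can be set side by side. Library sums lay between 973187 and 1024536. The number and spread of the libraries limit the precision, and how far sequencing depth limits it too cannot be given, since depth is unknown. Markers of hippocampal cells were present in every library, with summed values of 233 to 437 for 9 dentate granule cell markers, 256 to 366 for 5 CA1 markers and 321 to 424 for 5 CA3 markers. Markers of other regions were present too. Neocortex and subiculum markers summed to 97.0 to 221, striatal markers to 48.8 to 88.5 and thalamus and habenula markers to 63.5 to 90.8. The lowest neocortex and subiculum sum came from standard saline replicate 2. Some libraries stood apart. The 6 choroid plexus markers summed to 7722 in enriched saline replicate 2 and 422 in standard ethanol replicate 1, against 31.7 to 133 in the other 10. The granule cell sum of 437 came from standard saline replicate 2. In whole tissue, fewer cells of a type and less RNA per cell cannot be told apart.

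All 43 genes had a row, and 37 of them averaged at least 1 across libraries, the level required for testing, which 14947 genes of the table reached. Of the 43 genes, 9 averaged at least 100, 21 between 10 and 100, 7 between 1 and 10 and 6 under 1. Among the most abundant were Scn2a, with a mean of 232, Scn2b (134), Scn8a (127), Cacna2d1 (125) and Cacna1e (120), and the lowest were listed at 0 in most libraries. Between neighbours in the order of means, the ranges over 12 libraries overlapped in 38 of 42 cases. Among the 4 clear steps were those that separated Scn2a from Scn2b, Cacng4 from Cacng5, and Hcn3 from Cacna2d4. The plot of levels shows each library's value by family.

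**Figure D1:**
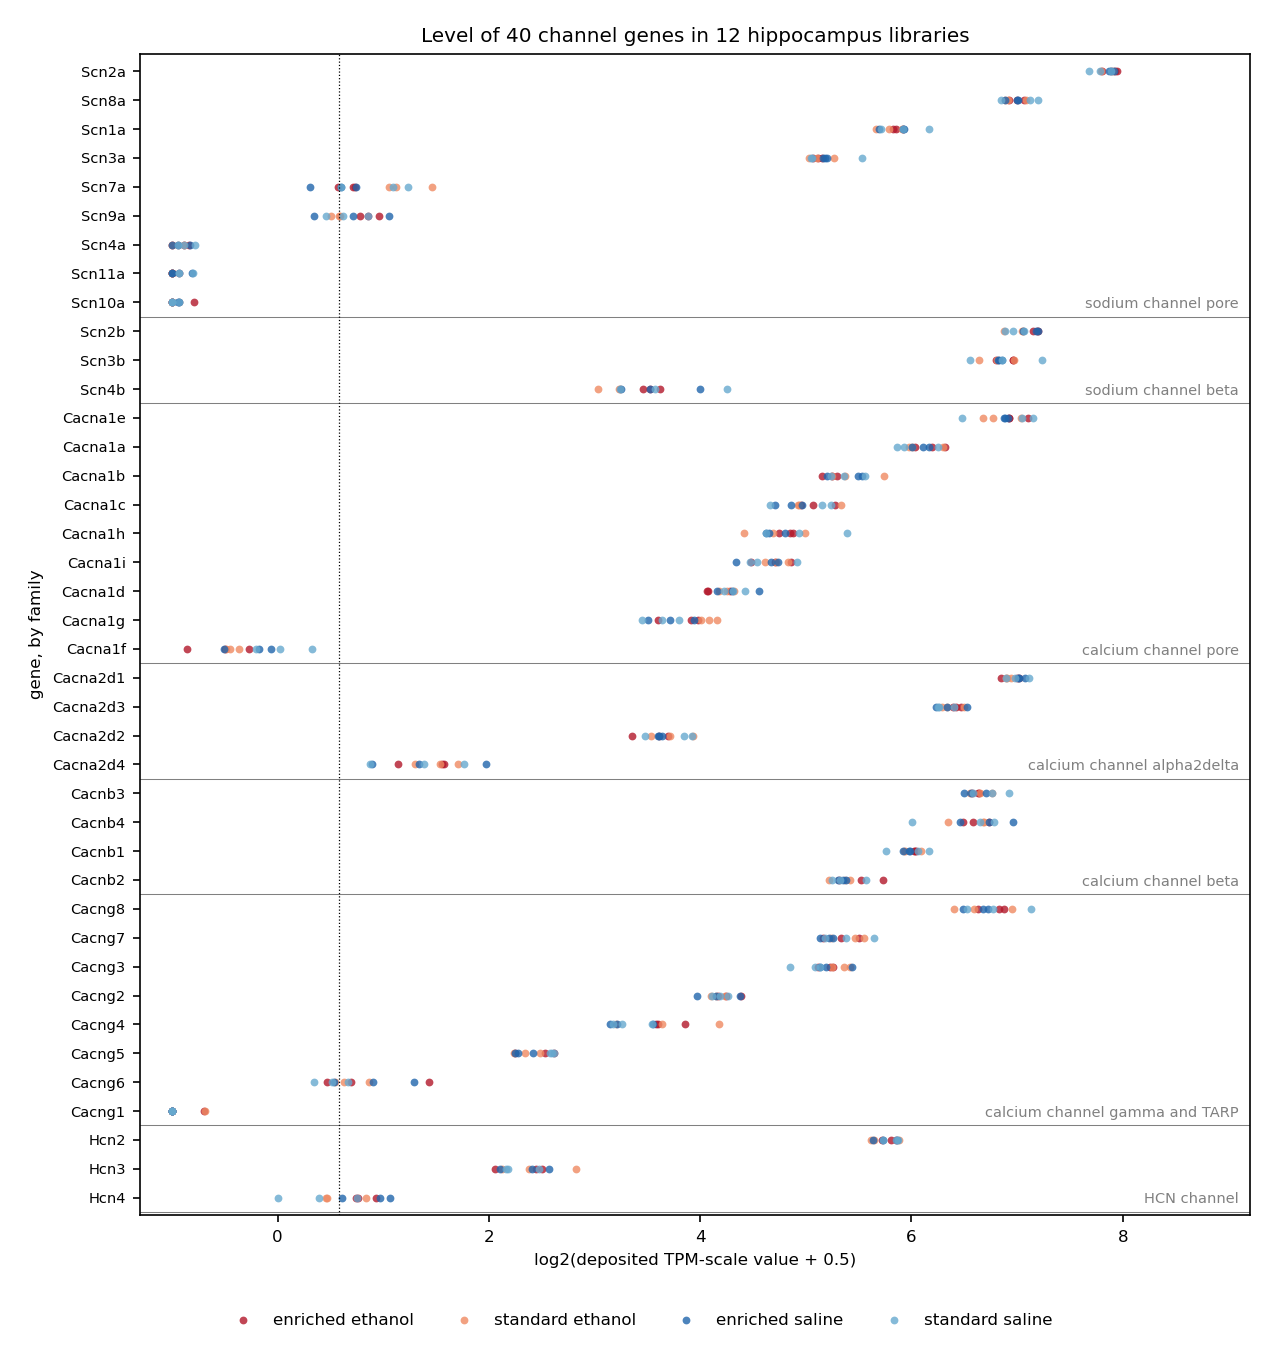
Level of 40 channel genes, on the x axis as log2(deposited TPM-scale value + 0.5), with genes on the y axis grouped by family and 1 point per library coloured by group. The dotted line marks a value of 1, and the 5 genes shown whose mean lies below it are Cacna1f, Scn4a, Cacng1, Scn11a and Scn10a.

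Among sodium channel pores, Scn2a, found along unmyelinated axons and in immature initial segments, was the most abundant, with means of 237 ± 13.0 in enriched ethanol, 232 ± 9.46 in standard ethanol, 238 ± 3.89 in enriched saline and 221 ± 16.03 in standard saline mice (SD, n = 3 each, as for all group means below). Scn8a, the main pore of mature axon initial segments and nodes of Ranvier, averaged 127 ± 6.06 in enriched ethanol, 124 ± 9.15 in standard ethanol, 124 ± 6.06 in enriched saline and 133 ± 16.3 in standard saline mice. Scn1a, which is prominent in inhibitory neurons, averaged 58.0 ± 2.03 in enriched ethanol, 54.8 ± 4.68 in standard ethanol, 57.2 ± 5.09 in enriched saline and 61.1 ± 9.71 in standard saline mice. Scn3a, best known from embryonic brain, averaged 34.1 ± 0.922 in enriched ethanol, 34.7 ± 2.89 in standard ethanol, 35.9 ± 0.487 in enriched saline and 37.04 ± 7.46 in standard saline mice. For each of these 4 brain pores, the group means lay closer to each other than to those of the next pore in level.

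Scn7a, which encodes an atypical channel that responds to extracellular sodium, averaged 1.35, and Scn9a, a pore of peripheral pain-sensing and sympathetic neurons, averaged 1.13. The skeletal muscle pore Scn4a was listed at 0 in 3 libraries and was 0.0804 at most, and Scn10a and Scn11a, both pores of peripheral sensory neurons, were listed at 0 in 7 libraries each with highest values of 0.0797 and 0.0729. The 4 markers of peripheral sensory neurons summed to 1.36 to 6.30 over the libraries and 3 markers of skeletal muscle to 7.18 to 13.0.

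Beta subunits were among the most abundant of all the channel genes. Scn2b, which is held to the pore by a disulfide bond, averaged 134, and Scn3b 116. Scn4b, the other disulfide-linked subunit, whose tail takes part in the resurgent sodium current of cerebellar neurons, averaged only 11.1, although it lies close to Scn2b on chromosome 9. On GRCm38, Scn2b spans chr9:45117782-45130070 and Scn4b chr9:45138395-45154152, both on the plus strand, with 8.32 kb between them.

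The promoters of a few of these genes are shown because they stand beside large differences in level: the closely placed Scn2b and Scn4b, and Scn2a and Hcn2, the most abundant pore of the sodium and of the HCN family. Each line gives the 250 bases before the RefSeq start on GRCm38.p6, plus strand, with CpG dinucleotides in capitals.
Scn2a, chr2:65620519-65620768: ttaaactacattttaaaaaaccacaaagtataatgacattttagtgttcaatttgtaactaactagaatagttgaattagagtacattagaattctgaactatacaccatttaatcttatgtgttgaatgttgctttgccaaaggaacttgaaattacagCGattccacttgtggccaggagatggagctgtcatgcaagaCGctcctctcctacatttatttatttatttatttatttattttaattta
Scn2b, chr9:45117626-45117875: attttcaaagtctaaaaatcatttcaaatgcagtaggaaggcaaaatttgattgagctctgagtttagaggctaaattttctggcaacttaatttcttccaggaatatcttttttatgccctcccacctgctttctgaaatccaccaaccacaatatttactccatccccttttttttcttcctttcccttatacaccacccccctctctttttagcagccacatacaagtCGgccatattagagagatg
Scn4b, chr9:45138374-45138623: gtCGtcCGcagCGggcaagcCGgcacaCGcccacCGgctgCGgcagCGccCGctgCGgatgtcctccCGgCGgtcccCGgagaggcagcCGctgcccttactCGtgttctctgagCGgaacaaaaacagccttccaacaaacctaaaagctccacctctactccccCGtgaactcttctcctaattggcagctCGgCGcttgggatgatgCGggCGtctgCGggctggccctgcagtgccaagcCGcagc
Hcn2, chr10:79716384-79716633: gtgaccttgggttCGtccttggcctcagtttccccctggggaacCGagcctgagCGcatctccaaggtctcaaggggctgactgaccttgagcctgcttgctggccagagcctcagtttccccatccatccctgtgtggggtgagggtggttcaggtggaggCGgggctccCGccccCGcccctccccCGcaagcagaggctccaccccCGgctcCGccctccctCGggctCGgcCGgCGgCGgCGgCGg
The Scn4b stretch held 23 CpG and 66.0% G or C, whereas that of Scn2b held 1 CpG and 38.4%. Scn2a had 2 CpG and 29.6% G or C, and Hcn2 had 16 CpG and 70.4%. These RefSeq starts lay 229 bases (Scn4b), 94 bases (Scn2b) and 0 bases (Hcn2) into the GENCODE gene, and for Scn2a 2 bases before it.

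RefSeq gave windows of 300 bases (250 before and 50 after a start) for 31 of the 43 genes, 42 windows in all. In 22 of the 42 the start lay within 500 bases of the GENCODE gene start. On either strand, the GC box GGGCGG was present in 17 of the 42 windows (40.5%) and in 35.7% of the 32851 windows of all genes. The TATA motif TATAAA occurred in 2 of the 42 (4.76%), 1 window each of Cacna1d and of Scn2a (at a second start, not printed above), against 13.6% of all windows. The cyclic AMP element TGACGTCA and the E-box CACGTG occurred in 0 of the 42, against 1.79% and 7.15% of all windows. None of these motifs contains another. Median G or C content was 59.5% in the channel windows and 52.7% in all windows. The 32 windows of 22 channel genes with a mean of at least 10, Scn2b and Scn4b among them, held a median of 17.5 CpG. The 10 windows of 9 genes with a mean under 10 held a median of 6.5. Genes with several starts were counted once per window. A link between CpG and level was not tested.

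Calcium channel pores were led by the Cav2 genes of presynaptic channels. Cacna1e, the R-type pore, averaged 126 ± 9.47 in enriched ethanol, 114 ± 15.3 in standard ethanol, 118 ± 1.52 in enriched saline and 121 ± 28.3 in standard saline mice. Cacna1a, the P/Q-type pore, averaged 72.3 ± 6.99 in enriched ethanol, 68.2 ± 8.72 in standard ethanol, 67.9 ± 3.86 in enriched saline and 64.6 ± 9.76 in standard saline mice. Cacna1b, the N-type pore, averaged 37.1 ± 1.87 in enriched ethanol, 43.7 ± 8.12 in standard ethanol, 42.3 ± 5.19 in enriched saline and 41.5 ± 4.84 in standard saline mice. Together these 3 genes made up 64.2% to 68.6% of the summed calcium pore values of a library.

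Among L-type pores, which couple activity to gene regulation, Cacna1c averaged 33.9 ± 3.999 in enriched ethanol, 33.2 ± 5.65 in standard ethanol, 28.3 ± 2.58 in enriched saline and 32.3 ± 6.59 in standard saline mice. Cacna1d averaged 17.2 ± 1.54 in enriched ethanol, 18.6 ± 0.908 in standard ethanol, 19.9 ± 2.90 in enriched saline and 19.5 ± 1.39 in standard saline mice. The retinal L-type gene Cacna1f averaged 0.333, and the L-type genes held 12.7% to 15.7% of the summed values. The T-type genes, which open near rest and support bursts, held 17.8% to 20.8%. Cacna1h averaged 27.8 ± 1.31 in enriched ethanol, 25.8 ± 5.26 in standard ethanol, 25.4 ± 1.81 in enriched saline and 31.9 ± 8.76 in standard saline mice. Cacna1i averaged 25.3 ± 3.36 in enriched ethanol, 25.9 ± 1.93 in standard ethanol, 23.6 ± 3.45 in enriched saline and 24.7 ± 4.31 in standard saline mice. The least abundant of the 3, Cacna1g, averaged 13.8 ± 1.95 in enriched ethanol, 16.5 ± 0.893 in standard ethanol, 12.8 ± 1.99 in enriched saline and 11.9 ± 1.48 in standard saline mice.

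Of the auxiliary calcium channel genes, Cacna2d1 and Cacna2d3 dominated the alpha2delta family, which brings channels to the membrane and in which Cacna2d1 and Cacna2d2 encode the gabapentin-binding proteins. Cacna2d1 made up 53.5% to 59.9% of the family's summed value, Cacna2d3 32.8% to 40.4%, Cacna2d2 4.35% to 6.83% and Cacna2d4 0.624% to 1.496%. The cytosolic beta subunits were more even. Cacnb3 held 30.3% to 37.3%, Cacnb4 21.9% to 37.4%, Cacnb1 18.0% to 24.6% and Cacnb2 11.6% to 16.3%. Among the 6 TARP genes, Cacng8, long known as the TARP of hippocampal synapses, supplied 41.1% to 59.4%, ahead of Cacng7, Cacng3, Cacng2, Cacng4 and Cacng5. The gamma subunit genes outside this group were low: Cacng6 averaged 1.21, and Cacng1, the skeletal muscle gamma subunit, was listed at 0 in 10 of 12 libraries.

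Hcn2 was the leading HCN gene, averaging 55.1 ± 2.67 in enriched ethanol, 52.1 ± 5.36 in standard ethanol, 53.3 ± 4.30 in enriched saline and 56.1 ± 2.97 in standard saline mice. Hcn3 averaged 4.60 ± 0.820 in enriched ethanol, 5.06 ± 1.40 in standard ethanol, 4.68 ± 0.820 in enriched saline and 4.36 ± 0.619 in standard saline mice. Hcn4, the subunit of the cardiac pacemaker, averaged 1.26 ± 0.127 in enriched ethanol, 1.01 ± 0.238 in standard ethanol, 1.36 ± 0.301 in enriched saline and 0.832 ± 0.341 in standard saline mice.

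Within families, the shares of Scn2a and Hcn2 placed all standard saline libraries at the edge of the range. Scn2a supplied 49.4% to 53.8% of the summed sodium pore value in the 9 libraries of the other groups, against 48.1%, 48.9% and 48.3% in standard saline. Hcn2 supplied 59.3% to 64.2% of the HCN sum in those 9 libraries, against 65.3%, 65.3% and 65.6% in standard saline. These shares were singled out from many after the values had been seen and were not tested. Shares of a family depend on each other, since a higher share of a gene lowers the rest. How often a share separates a group from the others was not counted over the families. The plot of shares shows them beside the other main pores.

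**Figure D2:**
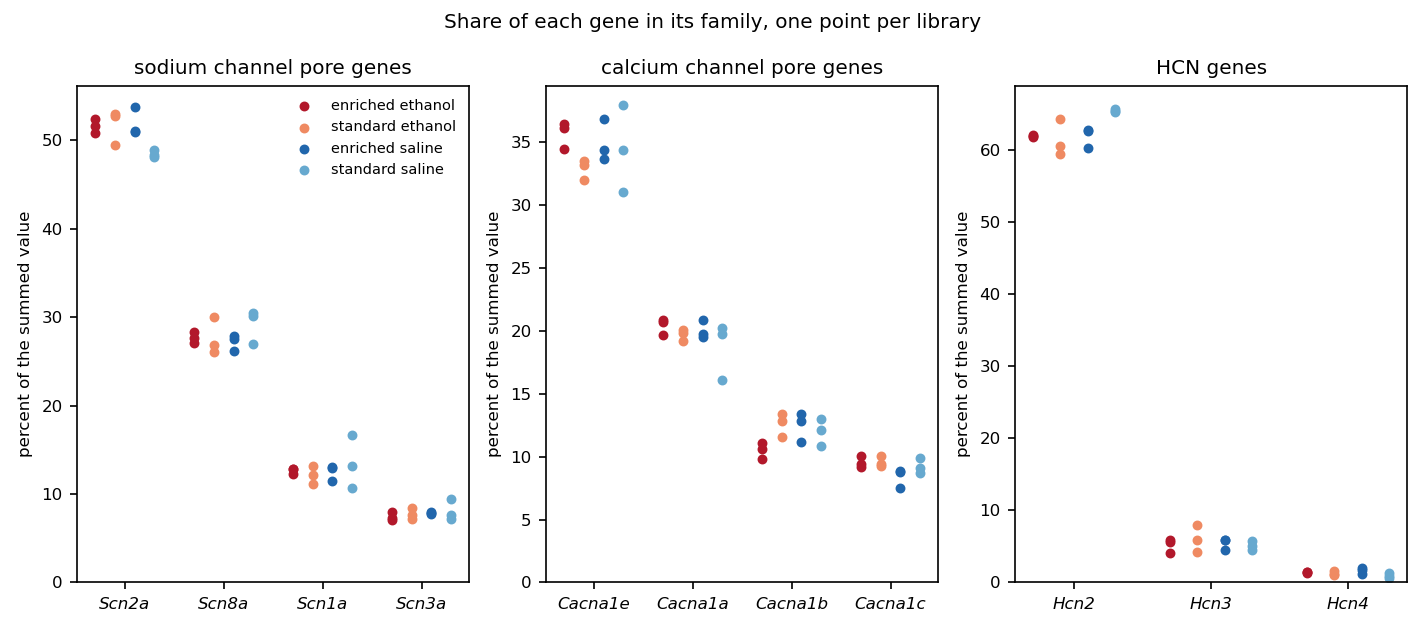
Share of main sodium and calcium channel pore genes and of Hcn2, Hcn3 and Hcn4 in the summed value of the family, in percent on the y axis, with 1 point per library and groups side by side from enriched ethanol at the left to standard saline at the right. Standard saline points sit lowest for Scn2a and highest for Hcn2, while among the calcium channel pores they include both the lowest and the highest Cacna1e share (31.1% and 38.0%) and the lowest Cacna1a share (16.1%).

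None of the 37 tested channel genes passed the test in any of 8 comparisons (limma, Benjamini-Hochberg adjusted p under 0.05 over all 14947 genes). The background of called genes was itself thin: 0.0134% of all genes for ethanol in standard cages, 0% for ethanol in enriched cages, 0.0268% for enrichment in saline mice and 0.00669% for enrichment in ethanol mice. It was 0.0134% for both treatments against neither, 0.0134% for the interaction, 0.0134% for ethanol averaged over housing and 0.0201% for enrichment averaged over injection. Channel genes of small p, which did not pass, are given for each comparison. Comparisons that use the same group of libraries are not independent of each other.

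Early ethanol in standard cages was compared with saline in standard cages to see what the exposure left behind without enrichment. The T-type pore Cacna1g had the smallest p among the channel genes, at 15.6, 16.5 and 17.4 in standard ethanol mice and 10.4, 11.9 and 13.4 in standard saline mice. The groups did not overlap, and the log2 fold change was 0.46 (SE 0.14, limma unadjusted p = 0.00647, adjusted p = 0.484). Cacng3, a TARP of cortical and hippocampal neurons, was at 40.6, 37.4 and 42.3 in standard ethanol and 33.5, 28.3 and 34.7 in standard saline mice, again without overlap (log2 fold change 0.32, SE 0.10, limma unadjusted p = 0.00807, adjusted p = 0.5001).

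On the lower side stood a sodium channel beta subunit and a TARP. Scn4b was at 7.68, 8.93 and 8.90 in standard ethanol and 18.6, 8.93 and 11.4 in standard saline mice (log2 fold change -0.52, SE 0.23, limma unadjusted p = 0.0458, adjusted p = 0.668). Its highest saline value came from replicate 1; without that library the log2 fold change was -0.24, and without standard saline replicate 2 it was -0.75. Cacng5, a TARP, was at 5.08, 4.56 and 4.22 in standard ethanol and 5.47, 5.65 and 5.54 in standard saline mice, with no overlap (log2 fold change -0.25, limma adjusted p = 0.724).

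Over the 37 genes, 2 had an unadjusted p under 0.05 with a higher mean in standard ethanol (3.75% of all genes did) and 1 with a lower mean (3.64% of all genes). Groups did not overlap for 3 channel genes that were higher (6.11% of all genes) and 2 that were lower (5.99%). The median log2 fold change was -0.01 for the channel genes and 0.00 for all genes tested. Marker lists were read beside these values, and no tested marker of any list passed the test in any comparison. In standard ethanol mice, 9 of 9 granule cell markers had lower means (median log2 fold change -0.52, summed values 233 to 297 in standard ethanol and 290 to 437 in standard saline). Means were higher for 8 of 8 mature oligodendrocyte markers (median 0.49, sums 5193 to 5514 in standard ethanol and 3173 to 5419 in standard saline). They were also higher for 6 of 6 meningeal fibroblast markers (median 0.87, sums 119 to 162 in standard ethanol and 67.5 to 91.5 in standard saline). The same held for 6 of 6 oligodendrocyte precursor markers (median 0.29) and 6 of 6 neocortex and subiculum markers (0.16). Sums of the latter were 157 to 174 in standard ethanol and 97.0 to 198 in standard saline, lowest in replicate 2, which was also lowest for Cacng3. The part of these markers in the channel values was not tested.

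In enriched cages, mice given ethanol were set against mice given saline. The log2 fold change was positive for 25 channel genes and negative for 12, while 48.0% of all genes were positive. The median was 0.05 for the channel genes and -0.01 for all genes. Enrichment in ethanol mice, which uses the same enriched ethanol libraries, gave the same counts of 25 and 12 (median 0.05, 48.1% of all genes positive). Cacna1d had the smallest p, at 18.9, 16.2 and 16.4 in enriched ethanol and 17.4, 19.2 and 23.1 in enriched saline libraries, for a difference of -0.20 on the log2 scale (SE 0.11; limma adjusted p = 0.677). Without enriched saline replicate 3 it was -0.09. Cacng4, a TARP, was at 11.6, 11.5 and 13.98 in enriched ethanol and 11.2, 8.33 and 8.75 in enriched saline libraries, without overlap; its log2 fold change was 0.38 (SE 0.21; limma adjusted p = 0.685). No channel gene had an unadjusted p under 0.05 here, while 3.85% of all genes did with a higher and 3.91% with a lower mean. Groups did not overlap for Cacna1e, Cacnb1 and Cacng4, which were higher (7.78% of all genes), and for Scn3a, which was lower (7.45%).

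The other genes of smallest p in enriched cages had overlapping groups. The beta subunit gene Cacnb2 was at 52.7, 45.4 and 39.2 in enriched ethanol and 38.9, 40.4 and 41.0 in enriched saline libraries, with a log2 fold change of 0.18 (0.07 without enriched ethanol replicate 1 and 0.28 without replicate 3). Cacna1c was at 38.2, 30.4 and 32.9 in enriched ethanol and 25.6, 28.5 and 30.8 in enriched saline mice (0.25, or 0.16 without enriched ethanol replicate 1). Cacna1b was at 37.4, 35.1 and 38.8 in enriched ethanol and 45.8, 36.3 and 44.7 in enriched saline mice (-0.18, or -0.12 without enriched saline replicate 1 and -0.28 without enriched saline replicate 2). Cacna2d1 was at 129, 127 and 115 in enriched ethanol and 128, 129 and 134 in enriched saline mice, with a log2 fold change of -0.08 that was -0.03 without enriched ethanol replicate 3. Limma's adjusted p ran from 0.706 to 0.788 for these 4 genes. In the same comparison 8 of 8 mature oligodendrocyte markers had positive log2 fold changes (median 0.36, summed values 3765 to 5604 in enriched ethanol and 3141 to 3872 in enriched saline). All 6 choroid plexus markers were negative (-1.06; sums 39.5 to 46.5 in enriched ethanol and 31.7 to 7722 in enriched saline), as were 6 of 6 striatal markers (-0.19; sums 55.9 to 68.9 in enriched ethanol and 66.7 to 88.5 in enriched saline). Their part in the channel values was not tested.

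Enrichment was compared with standard housing in saline mice and in ethanol mice. Scn2b had the smallest p of the channel genes in both. It was at 146, 133 and 144 in enriched saline and 124, 134 and 118 in standard saline mice, which overlap only through replicate 2 of each (log2 fold change 0.17, SE 0.07, limma unadjusted p = 0.0264, adjusted p = 0.442). In ethanol mice it was at 145, 147 and 142 in enriched and 117, 133 and 131 in standard cages, without overlap (log2 fold change 0.19, SE 0.07, limma unadjusted p = 0.0175, adjusted p = 0.861). Averaged over injection, Scn2b was 143 ± 5.34 in the 6 enriched and 126 ± 7.59 in the 6 standard libraries (log2 fold change 0.18, SE 0.05, 95% interval 0.07 to 0.28, limma unadjusted p = 0.00287, adjusted p = 0.415). That was the smallest p of any channel gene in any comparison, and it did not pass. The enriched and standard ranges overlapped, with a lowest enriched value of 132.6 and a highest standard value of 133.6. The averaged log2 fold change was 0.15 without standard ethanol replicate 1 and 0.20 without standard saline replicate 2. In ethanol mice alone it was 0.13 without standard ethanol replicate 1 and 0.22 without standard ethanol replicate 2.

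In saline mice, Cacng3 was at 35.9, 34.7 and 42.9 in enriched and at the standard saline values given above, with log2 fold change 0.23 (limma unadjusted p = 0.0396, adjusted p = 0.478), or 0.14 without enriched saline replicate 3. Cacng5 was at 4.25, 4.33 and 4.85 in enriched saline, below all standard saline libraries (log2 fold change -0.29, limma unadjusted p = 0.0591, adjusted p = 0.514). Cacnb3 was at 93.9, 89.7 and 104 in enriched saline and 95.6, 108 and 121 in standard saline mice (log2 fold change -0.17, or -0.09 without standard saline replicate 3 and -0.25 with only its replicate 1 left out). These values show small differences of either sign among auxiliary subunits.

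The genes near the floor spread more widely. Hcn4 was at 1.022, 1.60 and 1.46 in enriched saline and 1.18, 0.4995 and 0.815 in standard saline mice (log2 fold change 0.50, or 0.31 without standard saline replicate 2). Scn7a was at 1.17, 0.737 and 1.018 in enriched saline and 1.017, 1.64 and 1.85 in standard saline mice (log2 fold change -0.43). In ethanol mice Scn7a was at 0.989, 1.16 and 1.14 in enriched and 2.25, 1.58 and 1.67 in standard cages, without overlap (log2 fold change -0.54, SE 0.25, limma unadjusted p = 0.0538, adjusted p = 0.887). Averaged over injection its log2 fold change was -0.48 (SE 0.18, limma unadjusted p = 0.0189, adjusted p = 0.585), with a highest enriched value of 1.17 and a lowest standard value of 1.017.

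In ethanol mice, Cacna1g was at 14.6, 15.3 and 11.6 in enriched ethanol, below the 3 standard ethanol values (log2 fold change -0.25, or -0.14 without enriched ethanol replicate 3). Cacna1b had a log2 fold change of -0.22, and -0.08 without standard ethanol replicate 1, in which it was at 52.9. Cacnb2 had a log2 fold change of 0.19, 0.08 without enriched ethanol replicate 1 and 0.29 without enriched ethanol replicate 3. The plot of selected genes shows Scn2b, Scn4b, Cacna1g, Cacng3, Cacng4 and Cacng5 in each library.

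**Figure D3:**
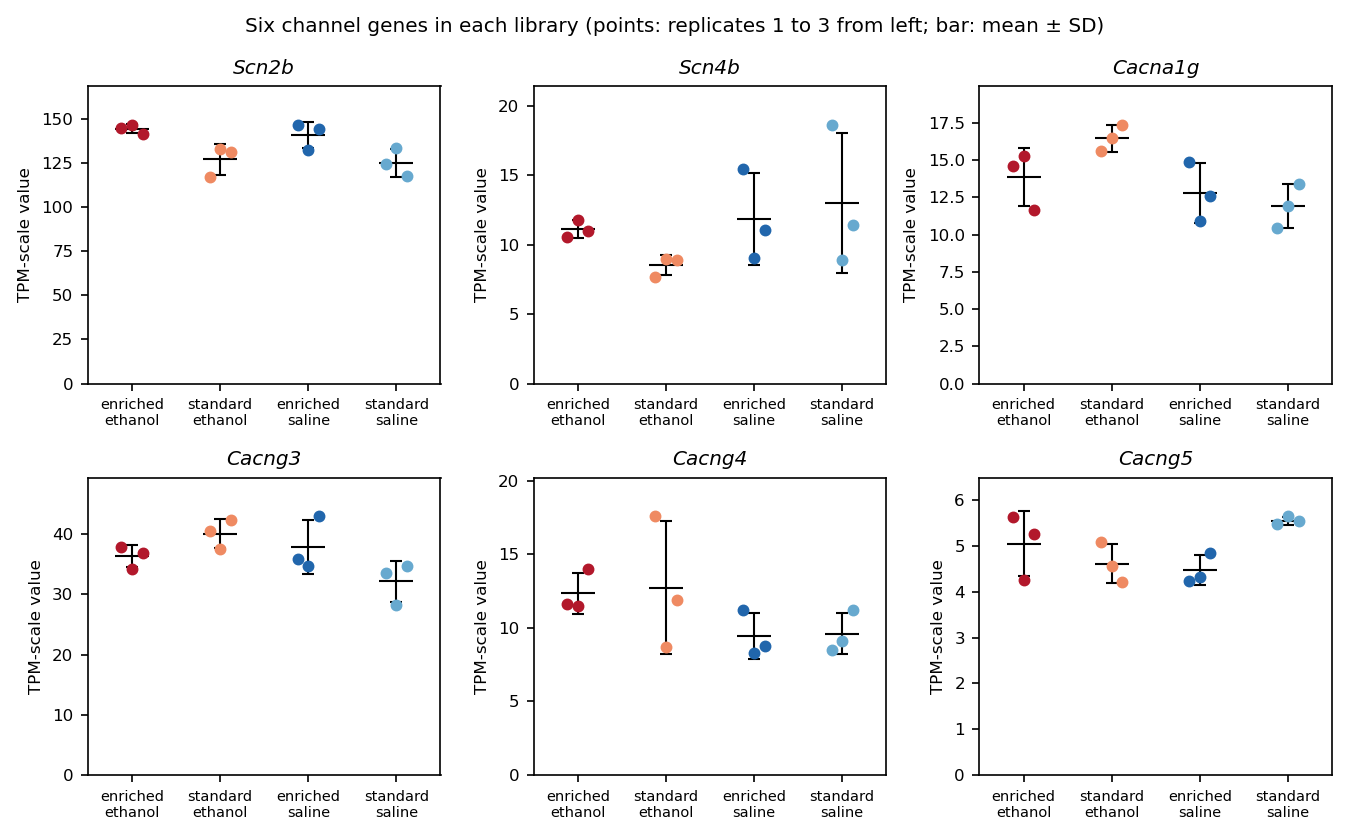
Deposited TPM-scale value, on y axes that start at 0, of 6 channel genes in each library by group on the x axis, with replicates 1 to 3 from the left and bars for the mean ± SD. Both enriched groups lie mostly above their standard groups for Scn2b, and the standard ethanol libraries lie above the standard saline libraries for Cacna1g and Cacng3 and below them for Cacng5.

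The share of channel genes with a small unadjusted p stayed close to the background under enrichment. In saline mice 2 of 37 had an unadjusted p under 0.05 with a higher mean (5.43% of all genes) and 0 with a lower mean (4.60%). In ethanol mice the counts were 2 (2.91% of all genes) and 0 (2.66%), and averaged over injection 1 (4.14%) and 1 (3.82%). Groups did not overlap in saline mice for 1 channel gene that was higher (7.40% of all genes) and for Cacng5, which was lower (6.57%). In ethanol mice they did not overlap for 4 channel genes that were higher (6.07% of all genes), Scn2b, Scn4b and Scn9a among them, and for Scn7a and Cacna1g, which were lower (5.97%). Of the 4 sodium channel beta genes, 1 had a positive log2 fold change in saline mice (family median -0.03) and 4 in ethanol mice (0.17). Of the 8 calcium pores, 4 were positive in saline mice (0.01) and 4 in ethanol mice (-0.0034).

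Marker lists were read beside the enrichment values, where again no marker passed the test. In saline mice, 9 of 9 granule cell markers had negative log2 fold changes (median -0.32, summed values 260 to 321 in enriched saline and 290 to 437 in standard saline). All 6 meningeal fibroblast markers were positive there (0.54; sums 95.4 to 166 in enriched saline and 67.5 to 91.5 in standard saline), as were 6 of 6 striatal markers (0.48; sums 66.7 to 88.5 in enriched saline and 48.8 to 58.3 in standard saline) and 6 of 6 choroid plexus markers (0.95), whose sum of 7722 came from enriched saline replicate 2. In ethanol mice, 6 of 6 meningeal fibroblast markers were negative (-0.33; sums 91.9 to 117 in enriched ethanol and 119 to 162 in standard ethanol) and 7 of 9 granule cell markers positive (0.23; sums 283 to 308 in enriched ethanol and 233 to 297 in standard ethanol). All 8 mature oligodendrocyte markers were negative in saline mice (-0.18) and in ethanol mice (-0.34). The part of these markers in the channel values was not tested.

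Mice with ethanol and enrichment were also set against mice with neither. Scn2b again had the smallest p, 145 ± 2.59 in enriched ethanol and 125 ± 8.01 in standard saline mice, without overlap (log2 fold change 0.21, SE 0.07, limma unadjusted p = 0.00996, adjusted p = 0.630). Among the genes of smallest p in each direction, none of them near the threshold, were Cacng3 (log2 fold change 0.18, or 0.09 without standard saline replicate 2, limma adjusted p = 0.798), Cacna1d (-0.18, limma adjusted p = 0.812), Cacnb3 (-0.14, or -0.06 without standard saline replicate 3 and -0.22 with only its replicate 1 left out, limma adjusted p = 0.815) and Cacna2d2 (-0.20, limma adjusted p = 0.845). Cacna2d2 was at 9.76, 12.4 and 11.7 in enriched ethanol and 10.7, 14.7 and 13.9 in standard saline mice, and its value was -0.10 without enriched ethanol replicate 1 and -0.33 without standard saline replicate 1. Here 2 channel genes had an unadjusted p under 0.05 with a higher mean (3.24% of all genes) and 0 with a lower mean (3.27%). Groups did not overlap for 3 channel genes that were higher (5.07% of all genes), Scn2b and Cacng4 among them, and for 0 that were lower (5.59%). Beside these, 7 of 9 granule cell markers had negative log2 fold changes (median -0.21), while 5 of 6 meningeal fibroblast markers (0.48) and 6 of 6 neocortex and subiculum markers (0.19) had positive ones. Their part was not tested.

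The interaction asks whether ethanol's difference in enriched cages departs from that in standard cages. Cacng3 came closest: its ethanol difference was -0.05 in enriched and 0.32 in standard cages on the log2 scale, an interaction of -0.37 (SE 0.14, limma unadjusted p = 0.0224, adjusted p = 0.620). For Cacng5 the differences were 0.15 and -0.25 (interaction 0.40, limma adjusted p = 0.690) and for Cacna1g 0.11 and 0.46 (-0.35, or -0.23 without enriched ethanol replicate 3, adjusted p = 0.725). For Cacna1h they were 0.13 and -0.29 (0.42, limma adjusted p = 0.738), and without standard saline replicate 2 the interaction was 0.22. Its values were 28.3, 26.4 and 28.8 in enriched ethanol, 31.3, 25.3 and 20.8 in standard ethanol, 24.1, 27.5 and 24.6 in enriched saline and 24.2, 41.4 and 30.1 in standard saline mice, so that 1 library lay above the rest. Cacna1b, with -0.18 and 0.07, had an interaction of -0.25 that was -0.10 without standard ethanol replicate 1. No channel gene had a positive interaction with an unadjusted p under 0.05 (3.42% of all genes did) and 1 had a negative one (3.99%). The interaction was positive for 9 of 9 granule cell markers (median 0.53, 5 with a limma unadjusted p under 0.05). It was negative for 6 of 6 meningeal fibroblast markers (-0.84, 3 with a limma unadjusted p under 0.05) and 6 of 6 choroid plexus markers (-1.13). The choroid plexus sum was 7722 in enriched saline replicate 2 and at most 422 elsewhere. The part of these markers in the channel values was not tested.

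With housing averaged out, ethanol and saline mice differed most by p in 2 genes. Cacna1g was 15.2 ± 1.98 in the 6 ethanol and 12.4 ± 1.64 in the 6 saline libraries (log2 fold change 0.28, SE 0.10, limma unadjusted p = 0.0135, adjusted p = 0.507). Cacng4 was 12.6 ± 2.98 in ethanol and 9.52 ± 1.34 in saline libraries, a difference of 0.36 on the log2 scale (SE 0.15, limma unadjusted p = 0.0338, adjusted p = 0.580). It was 0.24 without standard ethanol replicate 1, in which it was at 17.6. Those 2 were the channel genes with an unadjusted p under 0.05 and a higher mean (3.97% of all genes), and 0 had a lower mean (4.05%). The others of smallest p in each direction were Cacng3 (0.13, or 0.09 without standard saline replicate 2), Cacna1d (-0.14, or -0.08 without enriched saline replicate 3), Scn4b (-0.29, or -0.15 without standard saline replicate 1) and Cacna2d1 (-0.08, or -0.05 without standard saline replicate 2). Under enrichment averaged over injection they included Hcn4 (0.36), Cacnb3 (-0.10, or -0.06 without standard saline replicate 3) and Cacng7 (-0.14, or -0.08 without standard saline replicate 3). Cacng7, a TARP, ranged from 34.6 to 44.98 with a median of 37.3 in the 6 enriched and from 35.7 to 49.7 with a median of 42.4 in the 6 standard libraries, so the groups overlapped. In these averages, 8 of 8 mature oligodendrocyte markers were positive for ethanol (median log2 fold change 0.43) and negative for enrichment (-0.28). All 6 choroid plexus markers were negative for ethanol (-0.63) and positive for enrichment (0.29), with a sum of 7722 in enriched saline replicate 2 and at most 422 elsewhere. The part of these markers was not tested.

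The intervals show how large a difference these libraries could still hide. Averaged over housing, the 95% interval of the ethanol log2 fold change lay within ±0.5 for 32 of the 37 genes and within ±1 for 37. Under enrichment averaged over injection the counts were 33 and 37. For single comparisons of 3 against 3 libraries, 24 to 27 genes lay within ±0.5 and 35 to 37 within ±1. The interaction was the least precise, with 17 genes within ±0.5 and 32 within ±1. For Scn2a the ethanol interval was -0.06 to 0.13 and the enrichment interval -0.03 to 0.17, for Scn8a -0.17 to 0.10 and -0.17 to 0.11, and for Cacna1a -0.09 to 0.26 and -0.10 to 0.26. The plot of fold changes gives 35 of them.

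**Figure D4:**
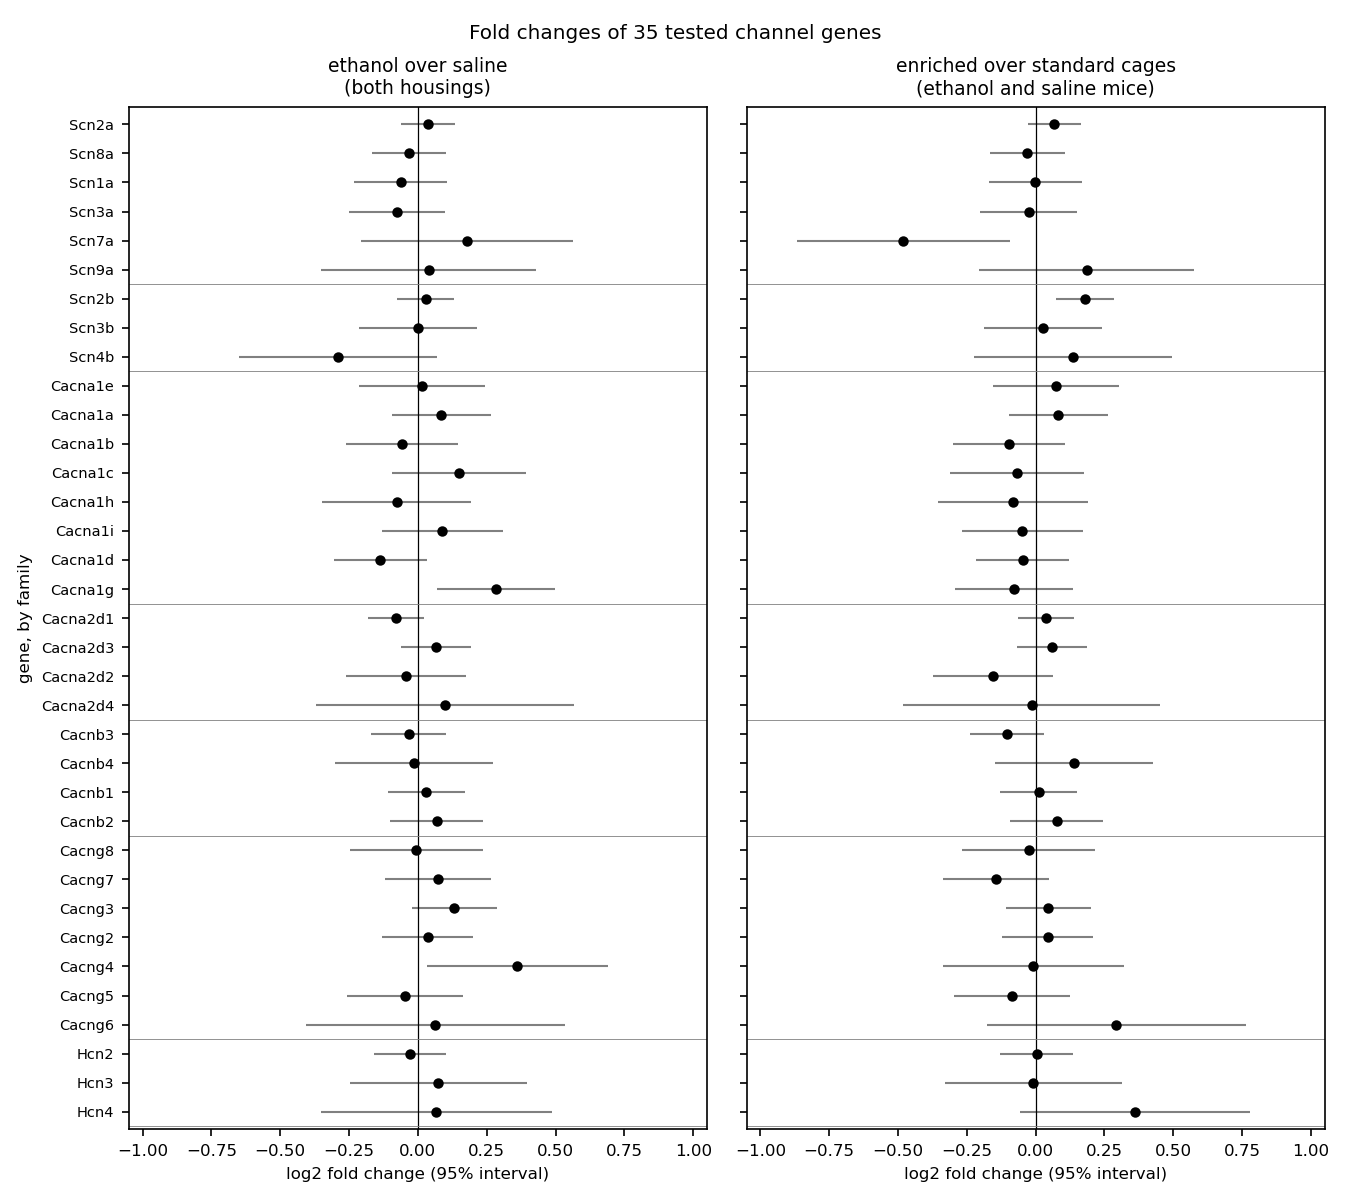
Log2 fold change, on the x axis, of 35 tested channel genes for ethanol over saline (left panel) and enriched over standard cages (right panel), each averaged over the other factor, with genes on the y axis by family. Points are limma estimates and lines their 95% intervals, unadjusted for the number of genes; the widest belong to genes of low level such as Cacna2d4 and Cacng6.

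Spread between libraries of a group differed among the channel genes. The within-group SD on the log2 scale had a median of 0.17 over the 37 genes and 0.16 over all genes tested, and of 0.15 and 0.12 for genes with a mean of at least 10. Scn2a (0.07) and Cacna2d1 (0.08) were among the steadiest, and Cacna2d4 (0.39), Cacng6 (0.34), Scn4b (0.33) and Cacng4 (0.30) varied most. Standard saline replicate 2 was the top library for 9 of the 37 genes, where 10.9% of all genes had their highest value. Those included the T-type pore Cacna1h, at 41.4 against 20.8 to 31.3 in the other 11 libraries, and Cacng8, at 140 against 84.1 to 123. The same library was lowest for genes that included Hcn4, Cacnb4 and Cacng3, where 13.5% of all genes had their lowest value, with Cacnb4 at 63.6 against 80.7 to 124 elsewhere. Standard saline replicate 1 was lowest for 10 of the 37 genes, where 9.90% of all genes had their lowest value, among them Cacna1e at 88.7. Marker sums of granule cells (437) and CA1 (366) were highest of all libraries in standard saline replicate 2. In replicate 1 those of CA1 (256) and CA3 (321) were the lowest, while the granule cell sum was 312. The part of these markers in the channel values was not tested. These contrasting libraries share a group, and the map of deviations shows both.

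**Figure D5:**
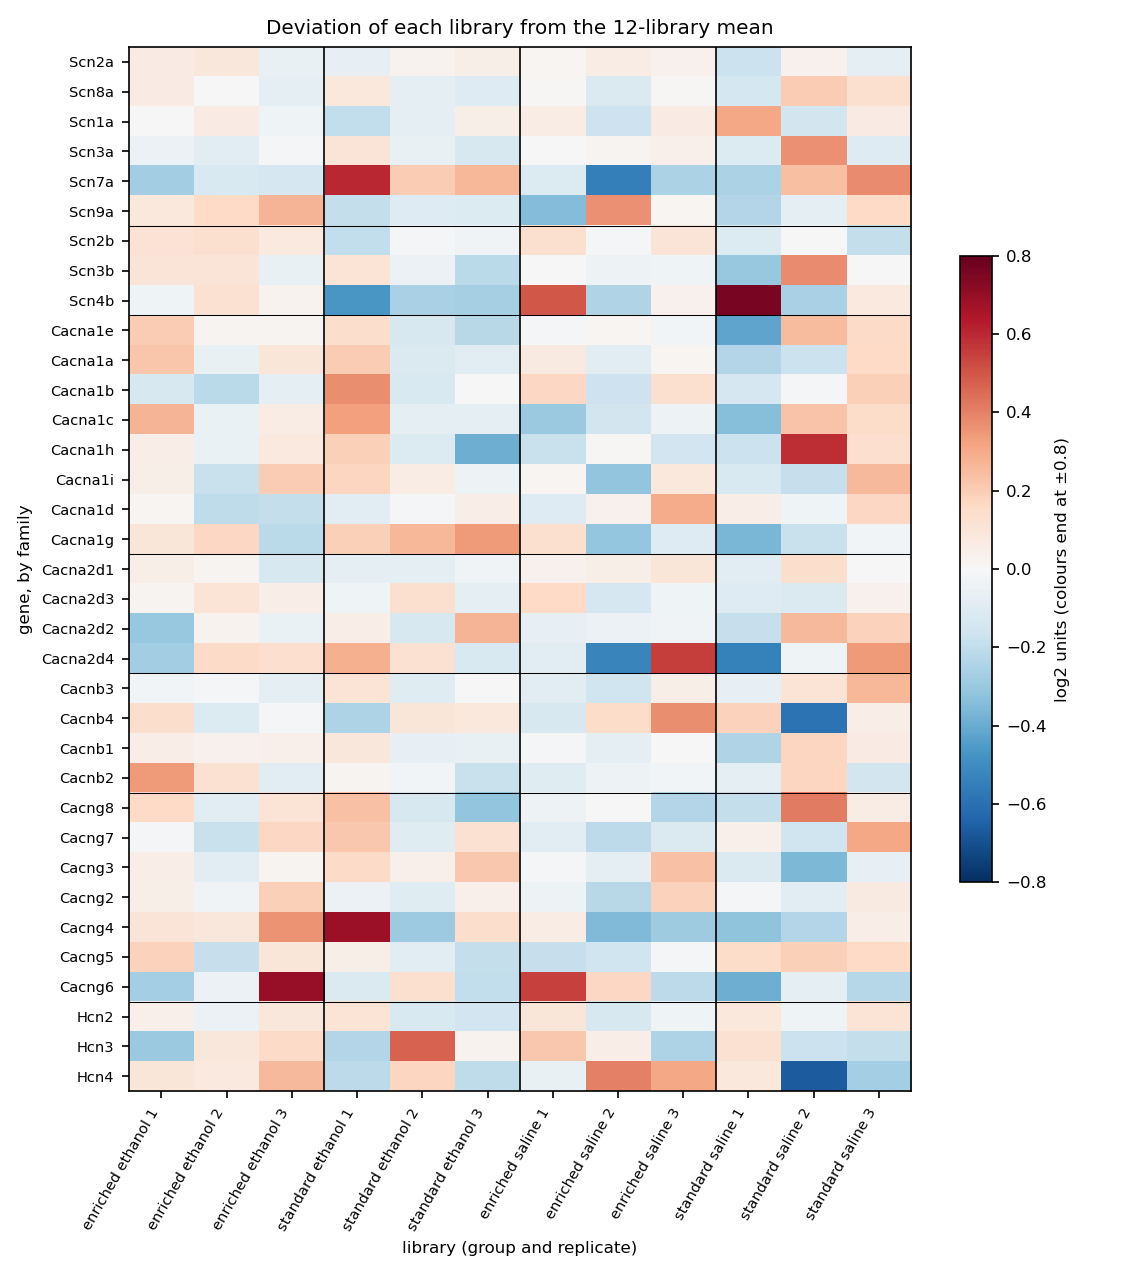
Deviation of each library from the 12-library mean, in log2 units by colour (red above, blue below), for 35 tested channel genes on the y axis by family and the 12 libraries on the x axis by group. Standard saline replicates 1 and 2 differ in opposite directions for several genes, such as Cacna1e, Scn3b and Cacng8.

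Genes whose products act with these channels were also counted. For sodium channel partners, among them the ankyrin Ank3 and the intracellular FGF proteins, 0 of 17 genes passed in any comparison. The same held for 18 tested calcium channel partners (calmodulins, active-zone RIM proteins and others), 4 HCN partners including Pex5l, 4 genes of the NALCN leak channel, 20 genes of calcium stores and pumps and 11 AMPA receptor genes and partners of the TARPs. For ethanol in standard cages their median log2 fold changes were 0.04, -0.07, -0.10, -0.08, -0.08 and 0.02 in that order. Averaged over injection, those for enrichment were -0.01, 0.03, 0.01, -0.03, 0.03 and 0.00.

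Several channel genes lie near each other, and neighbours often differed in level. On chromosome 2, Scn3a (35.4) lies 53.1 kb from Scn2a (232), and Scn1a (57.8), Scn9a (1.13) and Scn7a (1.35) follow in a row with gaps of 39.2 and 38.5 kb. On chromosome 7, Cacng7 (40.3), Cacng8 (106) and Cacng6 (1.21) stand in line, with 8.55 kb between the last pair. On chromosome 11, Cacng1 (0.0200), Cacng4 (11.04) and Cacng5 (4.93) follow each other, and on chromosome 6 Cacna1c (31.9) lies 40.1 kb from Cacna2d4 (2.24). The sensory pores Scn10a and Scn11a, both low here, lie near each other on chromosome 9. Channel genes were long: the median span of the 37 tested genes was 111 kb, against 25.4 kb for 14112 tested protein-coding genes.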

How the data were processed

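RNA was isolated from snap-frozen hippocampus and stranded libraries were made after ribosomal RNA depletion, per the labels' protocols. The submitters' processing notes name CASAVA, kallisto, sleuth and mm10, with no version or role. The authors deposited 1 table with a value per gene and library, named as TPM; its columns do not share 1 sum, so the deposited values were treated as a signal proportional to TPM. All 12 columns were matched by name, with 0 left over. Symbols and positions came from GENCODE M21 and promoters from RefSeq. limma 3.58.1 in R 4.3.3 was fitted to log2(value + 0.5) of 14947 genes with a mean of at least 1, with 4 group means, a mean-variance trend and two-sided tests, Benjamini-Hochberg adjusted over all genes (threshold 0.05). The added 0.5 understates changes of low genes. Named in full were the 3 tested channel genes of smallest p in each direction and comparison. The counts cover all channel genes, of which 3 are not reported here by name. The fit was tested on simulated data. Channel genes and lists were chosen with earlier results of these data known. Alternatives were other pseudocounts, filters and scalings, a replicate block, separate fits and leaving out each library.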

Additional observations from a re-analysis of the deposited data

How the results depend on the processing

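No channel gene passed under any alternative tried (pseudocounts of 0.1 and 1, no filter, a mean of at least 5, both rescalings, only the groups of a comparison, a replicate block and each library left out); the smallest adjusted p was 0.224, for Cacnb3 under enrichment in saline mice without standard saline replicate 1. All 934 alternative log2 fold changes of the named genes kept their direction and did not pass. Median log2 fold changes of the channel genes stayed within 1 SD of the library medians (0.063) in 153 cases. In the other 4, all for the interaction, they did not. Leaving out 1 library gave interaction medians from -0.005 to 0.1084, against 0.0169, and the lowest of these lay within that SD. The cause was not tested. Counts over all genes moved more, up to 21 for enrichment in ethanol mice without enriched ethanol replicate 3, against 1. Replicate numbers did not pair the libraries: the 18 correlations of same-numbered deviations ran from -0.151 to 0.058, and 2 libraries correlated best with their own number. With the replicate block, 0 channel genes were called in every comparison, and the interaction median was 0.0169. Depth is unknown, so no detection limit can be given for genes listed at 0.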
